A study of Homo sapiens with 12 samples.

Results

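The 10 genes described here are 7 transcription factors that drive epithelial-mesenchymal transition (SNAI1, SNAI2, TWIST1, TWIST2, ZEB1, ZEB2 and PRRX1) and 3 mesenchymal marker genes (THY1, TGFBI and VIM). They were chosen by name, with earlier results of these data known. Matched to the count files through their Ensembl identifiers, all 10 were found among the 61552 genes counted. RNA was sequenced from RD, an established human cell line of embryonal rhabdomyosarcoma, a muscle-lineage tumour, labelled fusion-negative. Cells in RPMI medium with fetal bovine serum were transfected by Lipofectamine RNAiMAX for 48 h with a scrambled siRNA or with an siRNA against EHMT1, which encodes the histone H3 lysine 9 methyltransferase GLP, and each group had 3 libraries. Both groups therefore shared the transfection and the cell line, and differed in the siRNA; the labels give no sequence for it. The labels do not say whether the libraries of a group came from separate cultures, so each p-value measures the spread between these libraries, which may be technical. A second experiment of the series, with an siRNA against SOX8, was not analysed here.

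In epithelial-mesenchymal transition, cells lose the junctions and polarity of an epithelium and take on the matrix, cytoskeleton and motility of mesenchyme. SNAI, ZEB and TWIST proteins bind E-box motifs in DNA. SNAI and ZEB proteins repress epithelial genes such as CDH1 (E-cadherin) by recruiting co-repressors, among them histone methyltransferase complexes, while the miR-200 microRNAs of epithelial cells repress ZEB1 and ZEB2 in turn. Muscle progenitors and muscle-lineage tumours are mesenchymal by origin.

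The 6 libraries held 40639655 to 47258481 counts in genes, and 26714 to 29265 genes had a count in each. A total of 3 counts, taken as the floor of detection, came to 0.0641 to 0.0751 CPM, the count scaled to the library's total; floors cover counting error only. Scrambled replicate 2 stood apart in the first principal component, at −36.4 against −16.0 and −9.16 for the other scrambled libraries. The EHMT1 siRNA libraries were at 19.6 to 21.6. On the second component the scrambled libraries ran from −26.6 (replicate 2) to 31.3 (replicate 1), and the EHMT1 siRNA libraries from −6.78 to −3.92. The scrambled libraries thus lay further apart than the EHMT1 siRNA libraries. EHMT1 itself was at 130.9, 155.9 and 130.1 CPM in the scrambled libraries and at 53.2, 54.4 and 57.6 CPM in the EHMT1 siRNA libraries, which left 39.6% of the scrambled mean (log2 fold change −1.34, SE 0.072, edgeR adjusted p = 9.13e-09, lower in 3 of 3 libraries). Its partner EHMT2, which encodes G9a, was at 106.1 ± 7.77 CPM and 91.7 ± 1.64 CPM (SD, n = 3; log2 fold change −0.21, edgeR adjusted p = 0.0334). EHMT2 no longer passed when any single EHMT1 siRNA library was left out (highest adjusted p 0.157).

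Of the 10 genes, 9 had enough counts to be tested; 1 of these rose (TGFBI), 1 fell (THY1) and 7 did not pass the test. A gene was called where edgeR's quasi-likelihood test gave an adjusted p under 0.05, with Benjamini-Hochberg adjustment over all 18646 genes tested. By that rule 12.4% of all genes tested were called, 5.81% as higher and 6.54% as lower after EHMT1 siRNA, and with 9 genes 1 call more or fewer moves the share of members far, so nothing is read from that share. The median log2 fold change of the 9 genes was −0.08, beside 0.00 for all genes tested, and 3 were higher and 6 lower. For 5 of the 9, all libraries of 1 group lay above all of the other (PRRX1, TGFBI and VIM higher, TWIST1 and THY1 lower after EHMT1 siRNA), and the same held for 30.9% of all genes tested. In bulk RNA, fewer cells expressing a gene and less of its RNA per cell cannot be told apart.

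**Figure D1:**
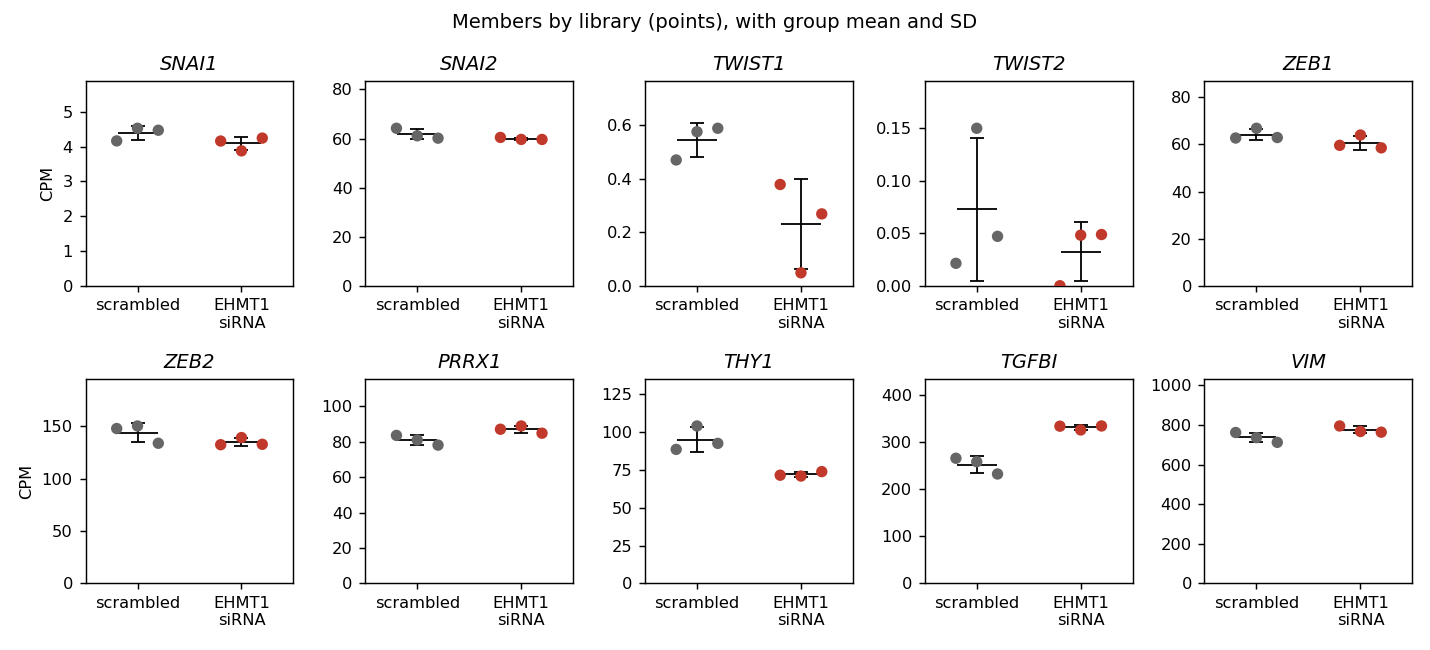
CPM (vertical axis, from 0) of each of the 10 genes in the 3 scrambled (grey) and 3 EHMT1 siRNA (red) libraries, with the group mean and SD in black. The EHMT1 siRNA libraries lie above the scrambled ones for TGFBI (325 CPM or more against 265 or less) and below them for THY1 (73.8 or less against 88.5 or more), while SNAI1, SNAI2, ZEB1 and ZEB2 overlap.

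Among the transcription factors, none of the 6 that could be tested passed the threshold with edgeR; 1 of them, TWIST1, had an unadjusted p under 0.05, and DESeq2 (which gave TWIST1 no adjusted p) and limma-voom called none. SNAI1 (Snail), a zinc-finger repressor of CDH1, was at 4.17, 4.53 and 4.47 CPM in the scrambled libraries and 4.16, 3.88 and 4.25 CPM in the EHMT1 siRNA libraries. These ranges overlap, and the fold of 0.934 had a 95% interval of 0.779 to 1.12 (log2 fold change −0.10, SE 0.124, edgeR adjusted p = 0.679). SNAI2 (Slug), its paralog, was at 64.2, 61.1 and 60.1 CPM and at 60.4, 59.6 and 59.6 CPM. Its groups also overlapped, with a fold of 0.969 and an interval of 0.891 to 1.05 (log2 fold change −0.05, SE 0.057, edgeR adjusted p = 0.678).

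The log2 ratio of SNAI2 to SNAI1, taken within each library from CPM plus 0.5, was 3.67 ± 0.105 in scrambled and 3.72 ± 0.059 in EHMT1 siRNA libraries (SD, n = 3 each). The difference of 0.045 was within the spread between libraries (exact two-sided permutation test, p = 0.6, adjusted p = 0.9 over 3 ratios; the smallest p that 3 against 3 libraries allow is 0.1). That ratio compares counts, not molecules, since it is not per length.

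ZEB1 and ZEB2 encode the zinc-finger homeobox repressors of the family. ZEB1 was at 62.7, 66.9 and 63.0 CPM in the scrambled libraries and at 59.6, 64.0 and 58.6 CPM after EHMT1 siRNA. EHMT1 siRNA replicate 2 lay above 2 of the scrambled libraries, so the groups overlapped (log2 fold change −0.08, SE 0.060; fold 0.946, 95% interval 0.867 to 1.03; edgeR adjusted p = 0.445). ZEB2 was at 148, 150 and 134 CPM and at 133, 139 and 133 CPM, again with overlap through scrambled replicate 3 (log2 fold change −0.09, SE 0.060; fold 0.936, interval 0.858 to 1.02; edgeR adjusted p = 0.344). The log2 ratio of ZEB2 to ZEB1 was 1.16 ± 0.074 and 1.15 ± 0.030 (SD, n = 3; exact two-sided permutation p = 0.9, adjusted p = 0.9).

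Both ZEB mRNAs are textbook targets of the miR-200 family, whose mature sequences fall into 2 groups by seed (bases 2 to 8, in capitals). They are shown, from RefSeq (GRCh38.p14), because the ZEB 3′ untranslated regions hold several matches to each seed.
hsa-miR-200b-3p: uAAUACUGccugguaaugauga
hsa-miR-200c-3p: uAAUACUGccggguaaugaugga
hsa-miR-429: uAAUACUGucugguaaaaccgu
hsa-miR-200a-3p: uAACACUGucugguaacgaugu
hsa-miR-141-3p: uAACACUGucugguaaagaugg

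The 3′ untranslated region of ZEB1 (2549 bases, the longest among its coding GENCODE transcripts) held 6 matches to the first seed (CAGTATT in the DNA alphabet) and 3 to the second (CAGTGTT). That of ZEB2 (5370 bases) held 5 and 4. SNAI2 and TGFBI held 1 match each to the first seed, and the other 6 genes held none to either. Among 19115 untranslated regions, 16% held CAGTATT and 18.2% held CAGTGTT. Among the 4333 that were at least as long as that of ZEB1, 3.55% held 3 or more of the first and 4.38% held 3 or more of the second. Examples of the first kind are shown as 29-base windows with the match in capitals; the matches start at base 369 and 1243 of the ZEB1 region and at base 455 and 898 of the ZEB2 region.
ZEB1 site at 369: gttttatcttatCAGTATTatcactctta
ZEB1 site at 1243: atttttacctatCAGTATTattttatttc
ZEB2 site at 455: actacaatgcatCAGTATTatgattcctc
ZEB2 site at 898: cattaattttgtCAGTATTacaccaaact

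The host genes listed for miR-200c, miR-141 and miR-205 were at or near 0 in these libraries. Of 7 precursor and host genes of miR-200 and miR-205, 6 had no count in any library. These were the host MIR205HG and the short precursors MIR200A, MIR200B, MIR200C, MIR141 and MIR429. The seventh, MIR200CHG, the host of miR-200c and miR-141, had 2 counts in scrambled replicate 1 and 0 elsewhere. No host of miR-200a, miR-200b and miR-429 was in the list. Poly-T selection and fragment libraries measure host transcripts, not short precursors or mature microRNAs. Nothing is therefore read from the zeros of the precursors, and the mature family was not measured.

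TWIST1, a basic helix-loop-helix factor of mesoderm, was low, with 22, 23 and 25 counts in the scrambled libraries and 16, 2 and 11 counts in the EHMT1 siRNA libraries. That is 0.470, 0.575 and 0.589 CPM against 0.378, 0.048 and 0.269 CPM, so every EHMT1 siRNA library was below every scrambled one. The log2 fold change of −1.22 (SE 0.485, 95% interval −2.24 to −0.19) had an unadjusted p of 0.0227 and an edgeR adjusted p of 0.118, which does not pass the threshold. It rests in large part on EHMT1 siRNA replicate 2, with 2 counts: without that library the log2 fold change was −0.74, and over the 13 alternatives that gave a value it ran from −1.77 to −0.74 with adjusted p from 0.0559 to 0.391. TWIST2, its paralog, had 1, 6 and 2 counts in the scrambled and 0, 2 and 2 counts in the EHMT1 siRNA libraries and was not tested. All but 1 of its values were at or under the floor of 3 counts, so no difference was detectable at this depth. The log2 ratio of TWIST1 to TWIST2 was 0.87 ± 0.135 and 0.43 ± 0.409 (SD, n = 3, exact two-sided permutation p = 0.2, adjusted p = 0.6). Mean TWIST1 was 0.545 CPM in scrambled and 0.232 CPM in EHMT1 siRNA libraries, near or under the 0.5 CPM added. Mean TWIST2, at 0.073 and 0.032 CPM, was far under it. The added value thus largely sets the size of this ratio, and nothing is read from it. In EHMT1 siRNA replicate 2 both genes had 2 counts, so the ratio was 0.

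PRRX1, a paired-related homeobox factor of limb and craniofacial mesenchyme, was at 83.5, 80.9 and 78.0 CPM in the scrambled libraries and at 87.0, 88.8 and 84.7 CPM after EHMT1 siRNA. The groups did not overlap, yet the fold of 1.07 had an interval of 0.990 to 1.17 (log2 fold change 0.10, SE 0.056, edgeR adjusted p = 0.264). Its paralog PRRX2 fell from 8.43 ± 0.365 to 5.29 ± 0.314 CPM (SD, n = 3; log2 fold change −0.67, SE 0.105, edgeR adjusted p = 0.000498), a call kept under all 16 alternatives. Whether the changes of PRRX1 and PRRX2 differ was not tested.

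Of the 3 marker genes, THY1 fell, TGFBI rose and VIM did not pass the test. THY1 encodes CD90, a glycolipid-anchored surface protein of fibroblasts, mesenchymal stem cells and neurons. It was at 88.5, 103.9 and 92.4 CPM in the scrambled libraries and at 71.4, 70.9 and 73.8 CPM after EHMT1 siRNA, without overlap. The means of 94.9 ± 8.03 and 72.0 ± 1.55 CPM (SD, n = 3) left 75.9% of the scrambled level (log2 fold change −0.40, SE 0.064, 95% interval −0.53 to −0.26, edgeR adjusted p = 0.00069). TGFBI encodes an extracellular matrix protein named for its induction by TGF-beta. It was at 265, 258 and 232 CPM and at 333, 325 and 334 CPM, again without overlap. The means were 251.6 ± 17.5 and 330.6 ± 4.74 CPM (SD, n = 3), a fold of 1.31 with a 95% interval of 1.20 to 1.43 (log2 fold change 0.39, SE 0.060, edgeR adjusted p = 0.000395).

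VIM encodes vimentin, the intermediate filament of mesenchymal cells. It was at 762, 736 and 713 CPM in the scrambled libraries and at 795, 767 and 764 CPM in the EHMT1 siRNA libraries, all 3 of the latter higher. The fold was 1.05 with an interval of 0.970 to 1.14 (log2 fold change 0.07, SE 0.055, edgeR adjusted p = 0.443).

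**Figure D2:**
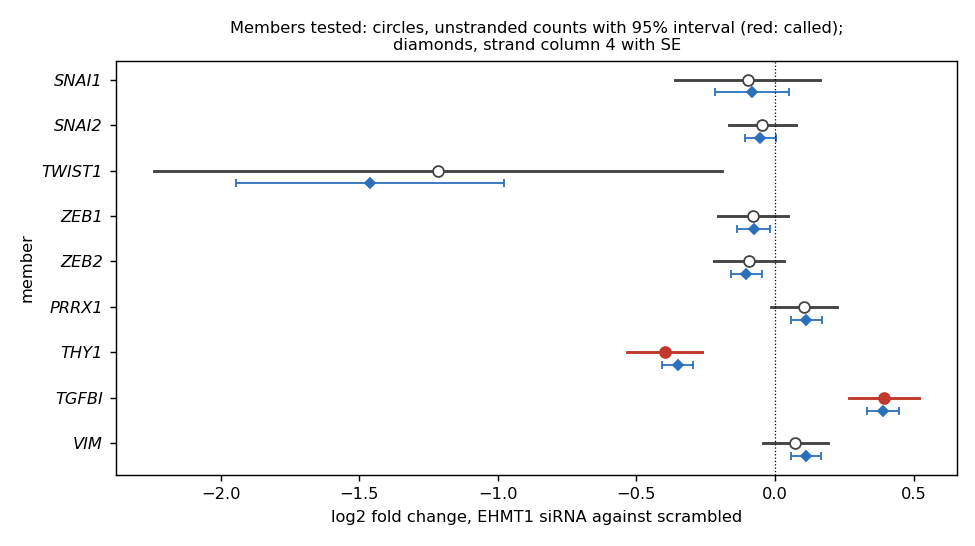
Log2 fold change (horizontal axis) of EHMT1 siRNA against scrambled for the 9 genes tested, as circles with 95% intervals from the unstranded counts (red where called) and as diamonds with the SE from strand column 4. Only the intervals of THY1, TGFBI and TWIST1 exclude 0, and TWIST1, with the widest, did not pass the adjusted threshold.

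How the reads were assigned to genes bears on 2 of these levels. The deposited files give each gene an unstranded count and a count for each strand, and column 4, the sense strand by these data, held 87.1% to 89.0% of the strand-assigned counts. The unstranded count of VIM was 192079 over the 6 libraries, against 620551 in column 4, so the unstranded value was 29.6% to 32.3% of the strand-specific one. For THY1 the totals were 21196 and 33636, and the unstranded value was 60.2% to 66.2%. For SNAI1, SNAI2, ZEB1, ZEB2, PRRX1 and TGFBI it was between 101.9% and 108.3%.

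VIM and THY1 both have annotated genes on the opposite strand within their exons. VIM-AS1 shares 641 of VIM's 5158 exon bases (12.4%) and AL133415.1 shares 619 (12%), while AP003396.5 shares 632 of THY1's 5925 (10.7%). Without strand, reads in shared bases cannot be assigned to either gene. Whether these overlaps account for the lower unstranded values of VIM and THY1 was not tested. VIM-AS1 was at 0.603 to 1.07 CPM in the unstranded column and at 137 to 187 CPM in column 4. AL133415.1 was at 0 and at 48.8 to 68.2 CPM. Column 4 held 89.1% to 91.5% of VIM's own strand-assigned counts. Wrong-strand reads of VIM in shared bases can therefore enter the column 4 values of VIM-AS1 and AL133415.1. Their share was not tested. ZEB1-AS1, ZEB2-AS1 and AC003986.2 overlap 4.23% of the exon bases of ZEB1, 5.18% of those of ZEB2 and 6.94% of those of TWIST1.

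The direction and calls of the members were the same with column 4. THY1 was at 148.7 ± 7.88 and 116.5 ± 1.67 CPM (SD, n = 3; log2 fold change −0.35, SE 0.056, edgeR adjusted p = 0.000482). TGFBI was at 237.0 ± 16.9 and 310.4 ± 5.41 CPM (log2 fold change 0.39, edgeR adjusted p = 0.000324). VIM was at 2359 ± 84.7 and 2546 ± 54.8 CPM, 3 of 3 EHMT1 siRNA libraries higher, and did not pass the test (log2 fold change 0.11, SE 0.054, edgeR adjusted p = 0.214). TWIST1 came nearest to a call there, at a log2 fold change of −1.46 (SE 0.484, edgeR adjusted p = 0.0559).

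**Figure D3:**
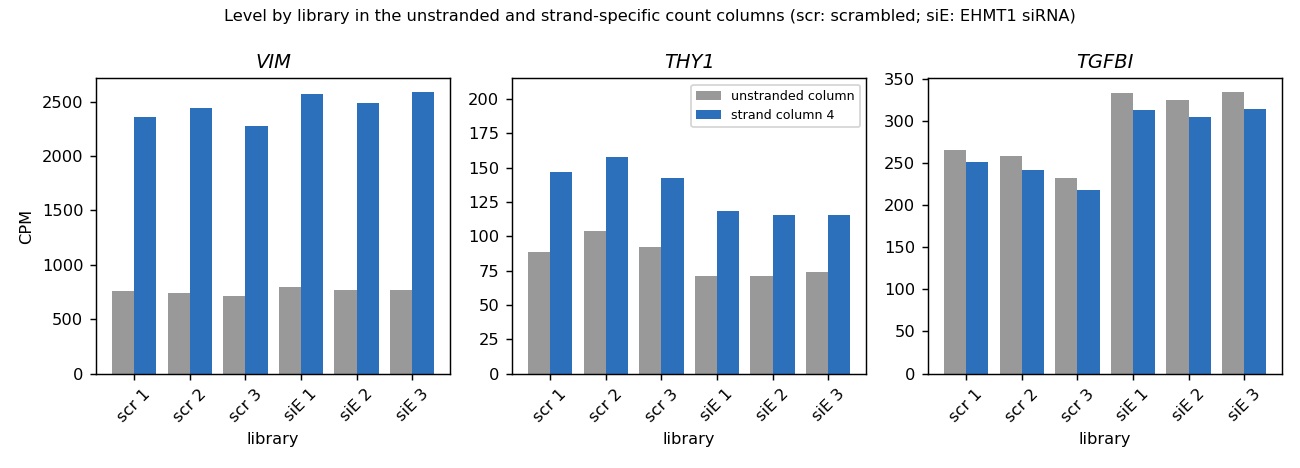
CPM (bars, from 0) of VIM, THY1 and TGFBI in each library from the unstranded column (grey) and from strand column 4 (blue). VIM is at 713 to 795 CPM in the unstranded column and at 2275 to 2584 CPM in the strand column, THY1 is also higher there, and TGFBI is slightly lower.

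The antisense genes did not pass the test where they could be tested in the unstranded counts. ZEB1-AS1 was at 2.41 ± 0.228 and 2.13 ± 0.243 CPM (SD, n = 3; log2 fold change −0.17, edgeR adjusted p = 0.571), and VIM-AS1 at 0.779 ± 0.175 and 0.859 ± 0.238 CPM (log2 fold change 0.14, edgeR adjusted p = 0.816). ZEB2-AS1 had 10, 11 and 8 counts in the scrambled and 4, 4 and 3 counts in the EHMT1 siRNA libraries, without overlap, and was too low to be tested. Processed copies took few reads: the SNAI1 pseudogene SNAI1P1 had 0 to 3 counts in a library and the ZEB2 pseudogene ZEB2P1 7 to 19.

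Per length of exon, the levels of the 10 genes in scrambled libraries spanned from 142.9 ± 4.83 CPM per kb for VIM to 0.039 ± 0.036 CPM per kb for TWIST2 (SD, n = 3). In between came TGFBI at 32.2 ± 2.24, SNAI2 at 18.2 ± 0.621, THY1 at 16.0 ± 1.35, PRRX1 at 9.80 ± 0.332, ZEB1 at 7.42 ± 0.270, ZEB2 at 5.75 ± 0.356, SNAI1 at 2.60 ± 0.116 and TWIST1 at 0.268 ± 0.032 CPM per kb. Slug mRNA was thus the highest of the transcription factors per length and Snail among the lower ones. Neighbours in that order did not overlap between scrambled libraries, but PRRX1 and ZEB1 did with exons of protein-coding transcripts alone, at 10.4 ± 0.354 and 9.85 ± 0.358 CPM per kb (SD, n = 3), where ZEB2 followed at 9.15 ± 0.566. With column 4, VIM was at 457.3 CPM per kb in scrambled libraries, and THY1 (25.1 CPM per kb) stood above SNAI2 (17.5). Among 18195 tested genes with a length, the level per length of VIM was above that of 99.0%, TGFBI 92.6%, SNAI2 85.6%, ZEB1 68.2%, SNAI1 47.2% and TWIST1 14.0%.

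**Figure D4:**
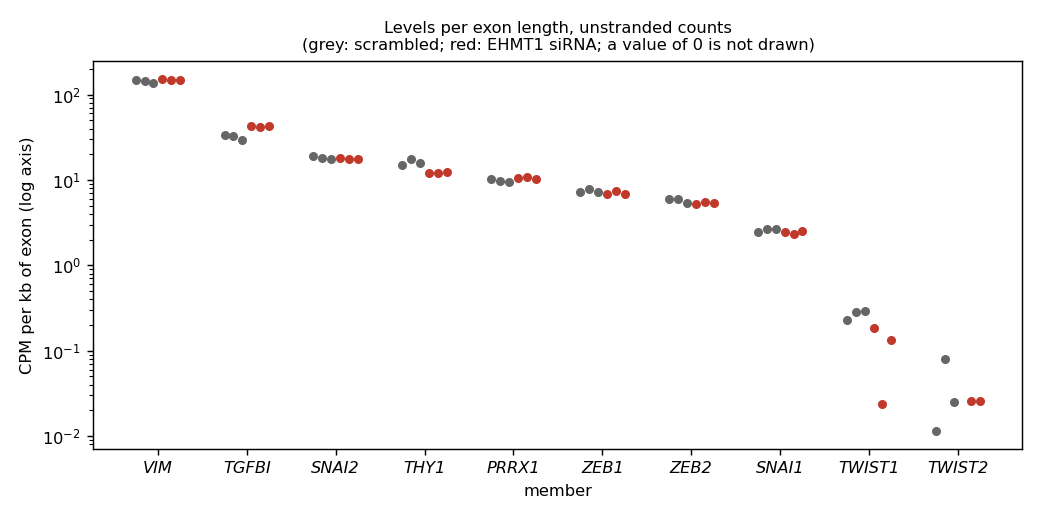
CPM per kb of exon (log axis) for each gene and library, from unstranded counts, in scrambled (grey) and EHMT1 siRNA (red) libraries. VIM lies highest at 138.1 to 154.2 CPM per kb, SNAI2 is the highest of the transcription factors, and TWIST1 and TWIST2 lie under 0.3 CPM per kb.

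Most genes of the epithelial list, which holds known targets of SNAI and ZEB repression such as CDH1, were low, but not all. Of 36, 26 were under 1 CPM in every library. JUP (plakoglobin, of adherens junctions and desmosomes) and the keratin KRT18, named after their values were seen, made up most of the list's sum of 152.6 to 178.2 CPM in scrambled and 174.5 to 176.1 CPM in EHMT1 siRNA libraries. JUP was at 68.1 ± 7.82 and 72.8 ± 0.552 CPM and KRT18 at 67.9 ± 6.14 and 69.4 ± 2.00 CPM (SD, n = 3), neither past the threshold (edgeR adjusted p = 0.439 and 0.813). Of the list, 16 genes could be tested. Among them 1 rose, 1 fell and 14 did not pass the test, with a median log2 fold change of 0.19. The shares over all genes tested were 5.81% higher and 6.54% lower. CDH1 had 2 counts in scrambled replicate 1 and 0 in the other 5 libraries. EPCAM, an epithelial adhesion molecule, was at 0.128 to 0.476 CPM in the scrambled and 0.410 to 0.439 CPM in the EHMT1 siRNA libraries (log2 fold change 0.40, edgeR adjusted p = 0.634).

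SPINT1, a membrane inhibitor of serine proteases, rose from 1.10 ± 0.121 to 1.92 ± 0.258 CPM (SD, n = 3; log2 fold change 0.80, SE 0.208, edgeR adjusted p = 0.0170), a call lost without scrambled replicate 3, EHMT1 siRNA replicate 1 or EHMT1 siRNA replicate 2 (highest adjusted p 0.106). AP1M2, an adaptor of epithelial basolateral sorting, fell from 3.20 ± 0.925 to 1.97 ± 0.049 CPM (log2 fold change −0.70, SE 0.198, edgeR adjusted p = 0.0284). That call was lost with limma-voom and without each library except scrambled replicate 3 (highest adjusted p 0.101). MARVELD2, which encodes tricellulin of tight junctions, was at 0.317 and 0.681 CPM on average (log2 fold change 1.10, edgeR adjusted p = 0.0565). KRT8, an epithelial keratin, was at 6.30 and 7.78 CPM (log2 fold change 0.30, edgeR adjusted p = 0.0608).

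The letters of the E-box bound by SNAI and ZEB proteins were counted in promoters. In windows of 300 bases around the start (RefSeq, GRCh38.p14), CACCTG or its reverse complement CAGGTG was present in 20.6% of all 35116 promoters. It was present in 15 of 24 promoters (62.5%) of the 18 epithelial genes with an entry, in 3 of 31 (9.68%) of 22 other mesenchymal genes and in 2 of 12 (16.7%) of 6 members, both of ZEB1. Each window was counted, also where a gene had several or where they overlapped. Of the 3 mesenchymal windows, 2 are overlapping windows of LOX that hold the same match, and ZEB1 gave most windows of the members. At least 1 such promoter was found for 13 of the 18 epithelial genes; 8 of these 13 were under 1 CPM on average in scrambled libraries, as were 3 of the 5 without. No test was made between lists, and a match of letters is not a bound site. Since the epithelial list holds known targets of SNAI and ZEB repression, its share may in part be set by the choice of genes. Only 18 of its 36 genes had an entry, and CDH1 was not among them.

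The promoters of the 2 epithelial genes that were called, and the ZEB1 promoter with most matches, are shown 5′ to 3′ with E-box matches in capitals. AP1M2 lies at chr19:10587263-10587562 on the minus strand with 3 matches, SPINT1 at chr15:40844227-40844526 on the plus strand with 1 match in this window and none in its other, and ZEB1 at chr10:31318966-31319265 on the plus strand with 3.
AP1M2: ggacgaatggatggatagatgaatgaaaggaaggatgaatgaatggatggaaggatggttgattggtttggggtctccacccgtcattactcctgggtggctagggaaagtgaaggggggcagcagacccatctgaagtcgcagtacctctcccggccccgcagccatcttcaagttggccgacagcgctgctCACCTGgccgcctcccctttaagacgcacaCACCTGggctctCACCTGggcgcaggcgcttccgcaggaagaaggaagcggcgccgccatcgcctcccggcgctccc
SPINT1: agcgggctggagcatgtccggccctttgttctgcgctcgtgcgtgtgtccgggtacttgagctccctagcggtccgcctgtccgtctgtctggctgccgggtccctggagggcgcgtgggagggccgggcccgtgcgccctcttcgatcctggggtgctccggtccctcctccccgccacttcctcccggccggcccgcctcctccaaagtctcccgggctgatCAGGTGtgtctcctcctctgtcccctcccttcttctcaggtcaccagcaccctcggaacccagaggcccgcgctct
ZEB1: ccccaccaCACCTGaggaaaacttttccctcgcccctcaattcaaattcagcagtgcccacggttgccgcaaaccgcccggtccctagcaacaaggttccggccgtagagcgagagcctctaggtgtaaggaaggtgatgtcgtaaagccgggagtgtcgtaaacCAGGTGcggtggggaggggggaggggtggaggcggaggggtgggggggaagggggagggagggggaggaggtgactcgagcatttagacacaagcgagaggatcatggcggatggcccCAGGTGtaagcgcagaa

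Other mesenchymal genes, a list without the members, had 30 of 33 genes tested. Of these, 8 rose, 2 fell and 20 did not pass the test (median log2 fold change 0.15). Without overlap, 11 were higher and 3 lower. Over all genes tested, 5.81% rose, 6.54% fell and 30.9% lay without overlap in either direction. The lists were chosen with earlier results of these data known, so nothing is read from their counts. LOX, which crosslinks collagen, rose from 81.1 ± 8.82 to 128.6 ± 5.85 CPM (SD, n = 3; log2 fold change 0.66, SE 0.071, edgeR adjusted p = 1.62e-05). NT5E, the ectonucleotidase CD73 that with CD90 marks mesenchymal stem cells, rose from 196.1 ± 18.5 to 278.9 ± 5.12 CPM (log2 fold change 0.51, edgeR adjusted p = 8.6e-05), while CD90 itself fell. The collagen chain COL1A2 rose from 20.5 ± 2.99 to 30.0 ± 1.25 CPM (log2 fold change 0.54, edgeR adjusted p = 0.000718).

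Further genes of that list are named here after their values were seen. THBS1, SPARC, COL3A1 and TAGLN rose, by 0.51, 0.31, 0.20 and 0.44 on the log2 scale, TAGLN only just (edgeR adjusted p = 0.0496). CDH11, a mesenchymal cadherin, and VCAN, a matrix proteoglycan, fell by 0.38 and 0.18. CDH2 (N-cadherin) was at 311.4 ± 15.5 and 324.2 ± 10.4 CPM and FN1 (fibronectin) at 2068 ± 89.8 and 2268 ± 46.5 CPM, neither past the threshold (edgeR adjusted p = 0.579 and 0.149). The counts depended on single libraries: without scrambled replicate 2, 13 rose and 4 fell, and without any one of the EHMT1 siRNA libraries 1 fell.

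**Figure D5:**
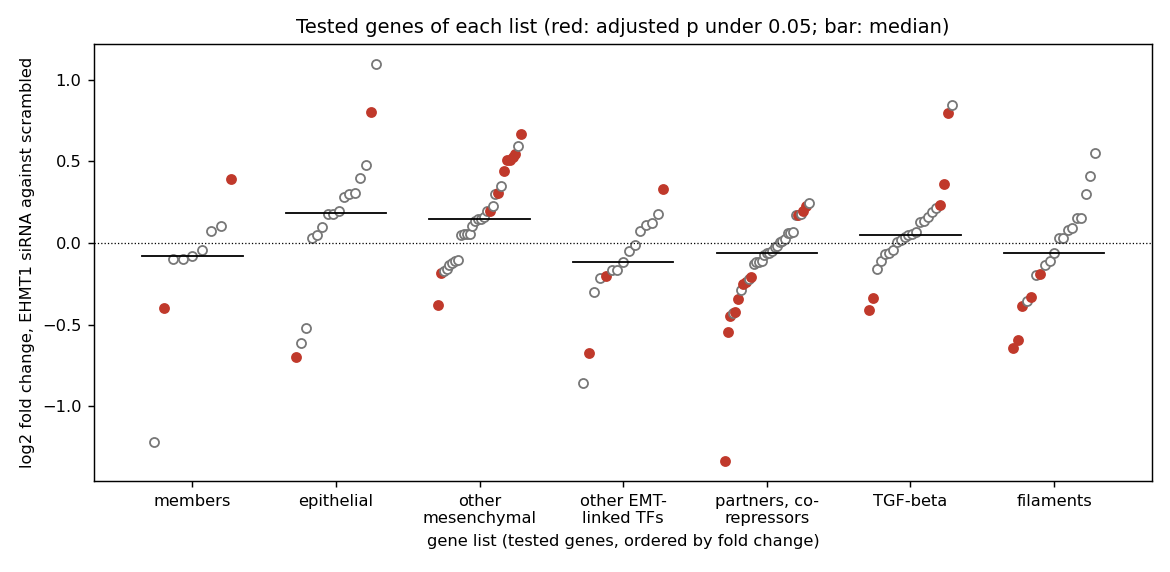
Log2 fold change (vertical axis) of every tested gene of the members and 6 related lists, ordered within each list, with called genes in red and the list median as a bar. The medians run from −0.11 for the other transcription factors to 0.19 for the epithelial genes, and 8 red points of the other mesenchymal genes lie above 0.

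Other transcription factors linked to the transition had 15 of 20 genes tested, of which 1 rose and 2 fell (median log2 fold change −0.11). The shares over all genes tested were 5.81% and 6.54%. RUNX2, the osteoblast factor, rose from 13.4 ± 0.813 to 16.9 ± 0.525 CPM (SD, n = 3; log2 fold change 0.33, edgeR adjusted p = 0.0114) and lost the call without EHMT1 siRNA replicate 1 or 2 (highest adjusted p 0.0827). TCF4, an E-protein partner of TWIST factors, fell from 131.6 ± 6.76 to 114.3 ± 2.62 CPM (log2 fold change −0.20, edgeR adjusted p = 0.0281). Its call was lost without any library except scrambled replicate 2. SOX4 did not pass (log2 fold change −0.16, edgeR adjusted p = 0.0958) with all libraries. Without scrambled replicate 2 it did, and 2 genes of the list rose; without EHMT1 siRNA replicate 1 or 2 none rose, and without scrambled replicate 3 or any EHMT1 siRNA library 1 fell.

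Of 33 tested partners, co-repressors and turnover factors of the SNAI, ZEB and TWIST proteins, 3 rose and 8 fell (median log2 fold change −0.06). The 8 include EHMT1, the target of the siRNA, and EHMT2. Over all genes tested, 5.81% rose and 6.54% fell. CTBP1, the co-repressor that ZEB proteins bind, fell from 104.0 ± 2.33 to 76.4 ± 2.01 CPM (SD, n = 3; log2 fold change −0.44, edgeR adjusted p = 6.73e-05). ID1 and ID3, which sequester the E-protein partners of TWIST1, fell from 45.5 ± 8.44 to 31.2 ± 2.92 CPM and from 119.9 ± 11.2 to 89.4 ± 5.79 CPM (log2 fold changes −0.55 and −0.42, edgeR adjusted p = 0.00382 and 0.000852). The 3 that rose, named after their values were seen, were GSK3B, LATS2 and PAK1, kinases that phosphorylate SNAI1. Their calls number 0 without EHMT1 siRNA replicate 1, 2 or 3 or scrambled replicate 3. With any EHMT1 siRNA library left out, 5 genes of the list fell.

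TGF-beta, the ligand for which TGFBI is named, signals through receptor kinases to SMAD proteins. Of its 22 genes, all tested, 3 rose and 2 fell (median log2 fold change 0.05), beside 5.81% and 6.54% of all genes tested. LTBP2, of the family of latent TGF-beta binding proteins, rose from 34.0 ± 2.16 to 59.1 ± 1.39 CPM (SD, n = 3; log2 fold change 0.80, SE 0.064, edgeR adjusted p = 7.24e-07). TGIF1, a SMAD co-repressor, rose from 44.7 ± 1.52 to 57.3 ± 1.37 CPM (log2 fold change 0.36, edgeR adjusted p = 0.000805), and SKI, also a SMAD co-repressor, fell from 129.3 ± 6.75 to 102.5 ± 4.06 CPM (log2 fold change −0.33, edgeR adjusted p = 0.00138). TGFBR2, the type II receptor, rose from 161.8 ± 7.47 to 189.9 ± 3.02 CPM (log2 fold change 0.23, edgeR adjusted p = 0.0121), a call lost without any one of the EHMT1 siRNA libraries. Without scrambled replicate 1, 5 genes of the list rose, and without scrambled replicate 3, or EHMT1 siRNA replicate 2 or 3, 1 fell.

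The promoter window of TGFBI held neither the E-box letters nor the SMAD-box letters CAGAC or GTCTG, which were in 45.3% of all promoters, 67.7% of those of the other mesenchymal genes and 25% of those of the members with an entry. Nothing follows from the absence of letters in 300 bases for either factor.

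A list of 20 genes held other intermediate filament proteins, the family of vimentin, together with PLEC, DST, EPPK1, FAM83H and VPS54, which are linkers or other proteins and not filament proteins themselves. Of these, 19 were tested. With edgeR 5 fell, all of them filament proteins, and none rose (DESeq2 and limma-voom also called 0 higher). Over all genes tested, 5.81% rose and 6.54% fell. The 3 that were higher at an unadjusted p under 0.05 were the keratin KRT8, PLEC and VPS54. The neuronal filaments INA and NEFM fell from 39.7 ± 1.17 to 25.4 ± 0.525 CPM and from 257.1 ± 41.2 to 170.0 ± 7.35 CPM (SD, n = 3; log2 fold changes −0.64 and −0.60, edgeR adjusted p = 7.47e-06 and 0.000376). NEFL fell from 133.6 ± 10.6 to 102.3 ± 0.785 CPM and the lamin LMNB2 from 586.3 ± 37.6 to 465.9 ± 7.45 CPM (log2 fold changes −0.38 and −0.33, edgeR adjusted p = 0.000716 and 0.00139). SYNM, named after its value was seen, also fell (log2 fold change −0.19). Without scrambled replicate 2, 2 genes of the list rose.

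The identity of the cells and markers of other cells were measured alongside, with genes named after their values were seen. Of 15 muscle and RD marker genes 13 were tested, of which 2 rose, 0 fell and 11 did not pass the test. Over all genes tested, 5.81% rose and 6.54% fell. By log2 fold change 7 of the 13 were higher and 6 lower. Without overlap, 5 were higher and 1 lower, the latter MYH3 (log2 fold change −0.26, edgeR adjusted p = 0.0566). PAX7 and CHRNG were the 2 that rose (log2 fold changes 0.28 and 0.83, edgeR adjusted p = 0.0058 and 1.32e-05). MYOD1 was at 151 and 155 CPM and DES at 311 and 299 CPM on average in scrambled and EHMT1 siRNA libraries, and MYF5 was at 0. Blood cell markers summed to 1.01 to 1.58 CPM in the scrambled and 0.828 to 1.29 CPM in the EHMT1 siRNA libraries, 6 of 7 under 1 CPM in all, with HBB at 0. Endothelial markers summed to 16.5 to 18.3 and 16.8 to 18.4 CPM, nearly all of it TEK, and the other 5 were under 1 CPM. Fibroblast markers summed to 320.5 to 369.8 and 355.0 to 368.8 CPM, mostly COL1A1, while FAP, PDGFRA, DCN and LUM were under 1 CPM. The share of mitochondrial counts was 5.41% in scrambled replicate 2 and 4.29% to 4.83% in the other libraries; its part in the results was not tested.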

How the data were processed

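Poly-T-selected RNA from 6 RD cell libraries was sequenced. Per the submitters' processing notes, the tools were STAR 2.5 and HTSeq 0.6.1 beside CASAVA, bcl2fastq and DESeq2 (given as version 2), and the build was hg19. The deposited tables of counts have the layout of STAR's gene counts (unstranded, then each strand), and which tool made them, the strandedness and the annotation are not given in the sources used here. Identifiers matched GENCODE symbols for 42047 of 61552 genes; GENCODE (GRCh38) was used for names, exon lengths, overlaps and untranslated regions, and no coordinates were taken from it.

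Unstranded counts, as the authors deposited them, were filtered (filterByExpr, minimum count 10), scaled by TMM and tested with edgeR 4.0.16 (quasi-likelihood, robust, group only) in R 4.3.3, with Benjamini-Hochberg adjustment and a threshold of 0.05. SE is the absolute log2 fold change over the square root of F. CPM uses TMM library sizes; ratios within a library add 0.5 CPM. Reads not counted for any gene (20.0% to 21.2%) stayed out, and these include the reads assigned to several genes (9.94% to 10.3%). Alternatives used other scalings and filters, DESeq2 1.42.0, limma-voom 3.58.1, the strand columns, the replicate block, a threshold of 0.01 and each library left out. Scripts were tested on simulated data.

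Named are all members, EHMT1, EHMT2, CDH1, EPCAM, antisense genes of members, and up to 4 tested genes per list with the smallest adjusted p; others are marked where named. An item that the rule names is not reported here. The members and lists were chosen with earlier results of these data known. Columns of other samples: none.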

Additional observations from a re-analysis of the deposited data

How the results depend on the processing

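THY1 stayed lower and past the threshold in 15 of 16 alternatives, the exception being strand column 3, which holds the minority of reads (0 members fell there; adjusted p 0.285). TGFBI stayed higher and past it in 16 of 16 (log2 fold change 0.34 to 0.50). With each library left out, THY1 ran from −0.45 to −0.33, TGFBI from 0.34 to 0.43 and EHMT1 from −1.38 to −1.25, and 1 member rose and 1 fell each time. SNAI2 and PRRX1 changed sign in strand column 3 (0.20 and −0.10), and EPCAM did without scrambled replicate 1 (−0.0038; 0.76 without scrambled replicate 2), none of them called. Low counts limit TWIST1, TWIST2, CDH1 and EPCAM.

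In strand column 3, the numbers that rose and fell were 0 and 0 for epithelial genes, 2 and 0 for other mesenchymal genes, 0 and 1 for other transcription factors, 0 and 1 for partners, 1 and 0 for TGF-beta genes, and 1 of the filament list fell. At an adjusted p under 0.01 they were 0 and 0 (epithelial), 0 and 1 (other transcription factors) and 0 and 4 (partners), with 1 other mesenchymal and 1 TGF-beta gene falling. Upper quartile factors gave 2 epithelial genes and 1 of the filament list rising and 1 other mesenchymal gene falling. A filter of 1 CPM gave 2 epithelial genes and 1 of the filament list rising, no filter gave 1 partner and 5 TGF-beta genes rising, and limma-voom gave 0 epithelial genes falling. With each library left out, the numbers rising and falling ran from 0 to 1 and 0 to 1 (epithelial), 6 to 13 and 1 to 4 (other mesenchymal), 0 to 2 and 1 to 3 (other transcription factors), 0 to 3 and 5 to 11 (partners), 2 to 5 and 1 to 2 (TGF-beta), and 0 to 2 and 4 to 6 (filaments). Over all genes, 90 rose and 87 fell in strand column 3, 1625 and 1923 without scrambled replicate 2, and 565 and 607, 452 and 484, and 482 and 528 without EHMT1 siRNA replicates 1, 2 and 3, against 1084 and 1220.

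The groups share replicate numbers. The deviations of same-numbered libraries were weakly correlated over genes (0.0555, 0.0154 and 0.0250), against −0.0439 to 0.0185 for libraries with different numbers. Replicate numbers alone do not state a pairing, so the main test did not treat the libraries as pairs. With the replicate number as a block, 1 member rose and 1 fell, EHMT1 was at −1.33, and 2 epithelial, 5 TGF-beta genes and 1 of the filament list rose; over all genes 1474 rose and 1632 fell. Every library except scrambled replicate 2 correlated best with its own number, a hint from the data and not the design.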
